A study of Mus musculus with 126 samples.

Results

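Collagen genes were taken as every gene of the deposited RNA-seq count table whose symbol is Col, a type number, the letter a and a chain number, such as Col1a1 or Col18a1. The rule found 44 genes of 27 collagen types among the 23420 genes listed, and it used no measured value. They comprised 7 basement membrane genes (Col4a1 to Col4a6 and Col18a1), 6 fibrillar genes (Col1a1, Col1a2, Col3a1, Col5a1, Col5a2 and Col5a3) and 31 genes of the other types. The filter on low counts passed 43 of them, and Col10a1, with at most 4 counts in any library, was not tested.

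The study of mouse embryonic stem (ES) cells concerns the part that methylated DNA and acetylated histones play in where transcription factors bind. Its RNA-seq experiment has 4 groups of 2 libraries. All cells were of strain J1. They grew on gelatin in medium that held serum and leukaemia inhibitory factor, which keeps ES cells undifferentiated. Wild type cells carry intact DNA methyltransferase genes, and TKO cells are Dnmt1-/-, Dnmt3a-/- and Dnmt3b-/-, so they lack the enzymes that set and maintain DNA methylation. Each genotype was exposed for 36 h either to 5 ng/µl Trichostatin A (TSA), an inhibitor of histone deacetylases, or to 0.0033% DMSO, the solvent. The groups are named by genotype and agent, for example TKO DMSO. The labels do not say how many clones the TKO line represents, so a difference between genotypes cannot be told apart from a difference between lines. The design text calls the 2 libraries of a group biological replicates and does not say what separates them, so the p-values measure the spread between these libraries.

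Collagens are extracellular matrix proteins in which alpha chains with a repeating Gly-X-Y sequence wind into a three-stranded helix, as homotrimers or as set combinations of chains. Fibrillar collagens assemble into the fibres that give connective tissue its tensile strength, whereas type IV collagen forms the sheet-like network of basement membranes, and the remaining types decorate fibrils, form beaded or short-chain networks, anchor basement membranes or span the cell membrane. Type IV collagen is among the first matrix proteins laid down in the early mouse embryo, and the fibrillar types are best known as products of mesenchymal cells.

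The promoters of 4 members that were lower in TKO DMSO than in wild type DMSO are shown. The differences of these genes run from a small shift (Col4a2) to at most 2 counts in any TKO library (Col8a1). No member that was higher in TKO cells, or that passed in no comparison, is among them. The 4 promoters were chosen after the values of their genes were seen. Each is the RefSeq window from 250 bases before to 50 bases after the annotated start on build GRCm38.p6, read 5′ to 3′ on the gene's strand, with every CG dinucleotide, the site of DNA methylation in mammals, in capitals. Col4a2 lies at chr8:11312555-11312854 on the + strand and holds 33 CG, and its start lies head to head with that of Col4a1. Col4a5 lies at chrX:141475169-141475468 on the + strand with 11 CG. Col3a1 lies at chr1:45311288-45311587 on the + strand and has 0. Col8a1 lies at chr16:57754688-57754987 on the - strand with 12.
Col4a2: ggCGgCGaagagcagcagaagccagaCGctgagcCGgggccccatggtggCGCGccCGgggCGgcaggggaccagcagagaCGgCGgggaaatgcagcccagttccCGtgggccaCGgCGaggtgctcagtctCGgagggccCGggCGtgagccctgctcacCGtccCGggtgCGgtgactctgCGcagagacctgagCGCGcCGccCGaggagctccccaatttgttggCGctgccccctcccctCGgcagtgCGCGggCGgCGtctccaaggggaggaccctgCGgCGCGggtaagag
Col4a5: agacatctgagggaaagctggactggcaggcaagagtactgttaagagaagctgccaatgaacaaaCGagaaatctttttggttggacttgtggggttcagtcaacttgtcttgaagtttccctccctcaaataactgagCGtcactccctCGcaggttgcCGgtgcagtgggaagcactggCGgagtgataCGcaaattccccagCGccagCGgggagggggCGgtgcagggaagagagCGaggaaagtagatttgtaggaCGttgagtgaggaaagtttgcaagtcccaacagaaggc
Col3a1: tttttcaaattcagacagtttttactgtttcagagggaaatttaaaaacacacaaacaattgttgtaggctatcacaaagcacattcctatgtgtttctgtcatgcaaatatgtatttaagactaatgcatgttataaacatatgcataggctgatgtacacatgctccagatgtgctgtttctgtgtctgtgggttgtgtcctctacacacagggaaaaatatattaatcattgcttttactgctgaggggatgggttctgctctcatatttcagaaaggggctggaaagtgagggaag
Col8a1: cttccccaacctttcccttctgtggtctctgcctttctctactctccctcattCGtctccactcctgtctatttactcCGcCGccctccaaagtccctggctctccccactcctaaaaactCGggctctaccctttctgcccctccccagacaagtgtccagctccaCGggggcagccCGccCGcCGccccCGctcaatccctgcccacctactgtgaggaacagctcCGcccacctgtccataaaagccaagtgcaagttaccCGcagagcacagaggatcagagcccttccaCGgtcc
RefSeq windows were matched by symbol for 35 of the 44 members, and in 30 of these the annotated start was also the outermost exon start of the deposited table. The collagen windows held a median of 12 CG, against 7 over all 32817 promoters of the same length. An observed to expected CG ratio of at least 0.6 was reached by 11 of the 35 (31.4%), against 35.8% of all promoters. The GC box core GGGCGG, searched on both strands, was found in 22 (62.9%), against 35.6% of all, and the TATA box core TATAAA in 5 (14.3%), against 13.6%. The collagen windows were also richer in G and C, with a median of 60% against 52.7% over all promoters. Of the 16 genes that were lower in TKO DMSO than in wild type DMSO, 11 had a window. Those without one include Col1a1, Col12a1 and Col5a2. Between these 11 windows and the 23 of tested genes that were not lower, the median number of CG was 12 and 14. In the same order 3 and 8 windows reached the ratio of 0.6, and 9 and 13 held GGGCGG. These are descriptions of letters in a window, not of methylation or binding.

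Each library held 13280631 to 15542527 counts, so that 3 counts corresponded to 0.183 to 0.243 CPM (counts scaled to the size of the library, with TMM factors between libraries). The intervals and floors given cover counting error only. Transcripts of all 3 targeted genes were lower in every TKO library than in every wild type library, at 123 to 135 CPM against 360 to 464 for Dnmt1, 25.9 to 39.1 against 152 to 237 for Dnmt3a and 43.7 to 76.1 against 343 to 596 for Dnmt3b. The table does not show which exons the remaining reads cover. All 8 ES cell markers on a fixed list (Pou5f1, Nanog and others) were above 1 CPM in each library. Collagen genes took 0.0919% to 0.141% of all counts. In bulk RNA, fewer cells of a type and less RNA per cell cannot be told apart.

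Differences were tested with edgeR's quasi-likelihood test across all 15822 genes that passed the filter, with Benjamini-Hochberg adjustment over them, and "rose", "fell", "higher" and "lower" of a tested gene are used where the adjusted p was below 0.05. Log2 fold changes are given ± a standard error (SE) derived from the test. It is the size of the log2 fold change divided by the square root of the test's F statistic, and was not estimated separately. The 5 comparisons share libraries with one another, so they are not independent of each other. With 2 libraries a group an exact permutation test of 1 gene cannot go below a p of 0.333, and the p-values therefore rest on the spread that the model shares across genes.

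Levels of different genes were compared as CPM per kilobase of exon (CPM per kb), averaged over the 8 libraries. Col18a1, whose C-terminal fragment is endostatin, was the most abundant collagen transcript at 97.9 CPM per kb. Col4a1 followed at 27.8 and Col4a2 at 15.9, and these are the chains of the ubiquitous type IV network. Col9a2, a cartilage collagen chain, came next at 8.29 and Col5a1, a regulator of fibril diameter, at 4.52. Col18a1 ranked first and Col4a1 second in each of the 8 libraries. Col4a2 came next in 7 of them and fell behind Col9a2 in TKO DMSO library 2, and over that group the means were 11.3 CPM per kb for Col9a2 and 10.7 for Col4a2.

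**Figure D1:**
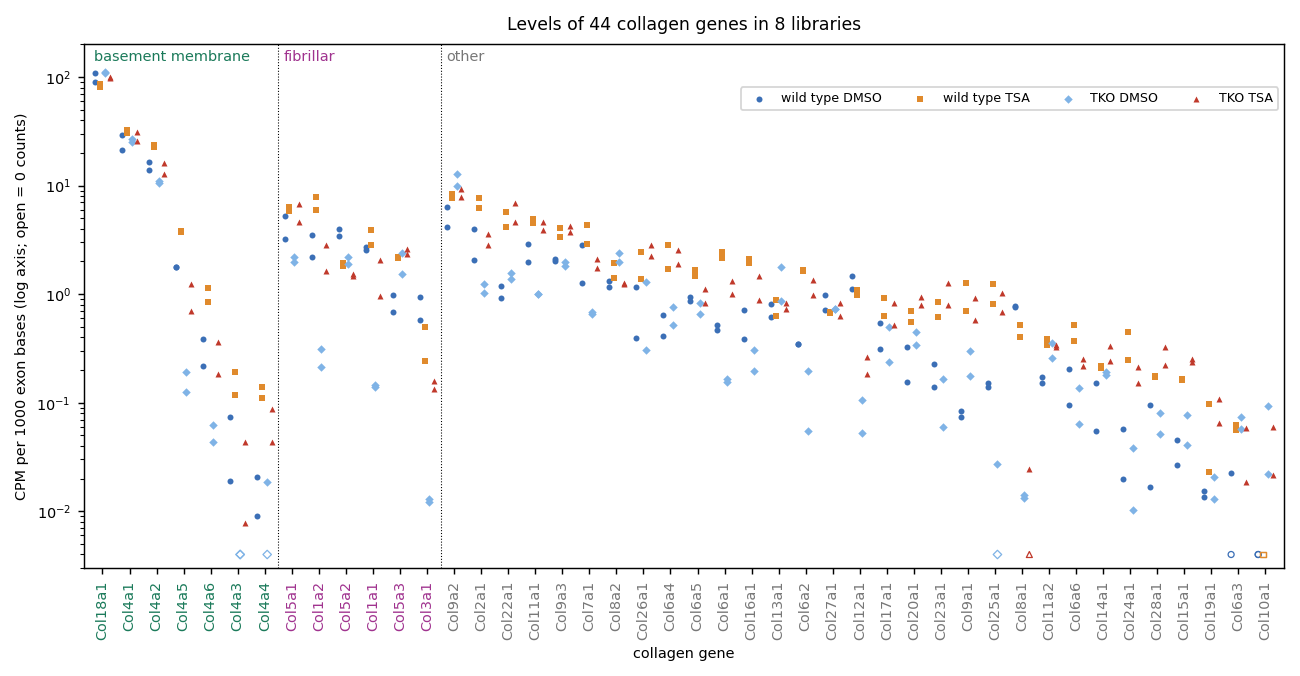
Level of each of the 44 collagen genes (x axis) in CPM per kb of exon on a log axis, with 1 point for each of the 8 libraries, coloured by group and ordered within each class by the mean. Open symbols at the bottom mark libraries with 0 counts. Col18a1 and Col4a1 stand above all other members, and the light blue diamonds of TKO DMSO lie lowest for Col4a5, Col4a6, Col1a1, Col1a2 and Col3a1.

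Basement membrane genes made up most of the collagen RNA in each library when CPM per kb was summed over members. Their share was 78.6% and 76.4% in wild type cells with DMSO, 66.8% and 64.6% with TSA, 82.9% and 80.4% in TKO cells with DMSO and 72.6% and 68.8% with TSA. It was lower in both TSA libraries than in both DMSO libraries of the same genotype, and within it the share of Col18a1 was lower. The summed level of the class overlapped between treatments. It was 156 and 128 CPM per kb in wild type cells with DMSO and 145 and 142 with TSA. In TKO cells it was 145.6 and 148.3 with DMSO and 139.2 and 146.1 with TSA. The sum of the other types was larger with TSA, at 53.1 and 55.4 against 26.8 and 25.2 in wild type cells. In TKO cells that sum was 41.4 and 50.3 against 23.9 and 29.3. The 6 Col4 genes took 24.2% and 22.3% in wild type cells with DMSO and more with TSA, at 27.4% and 27.5%. In TKO cells they took 20.4% and 20.7% with DMSO and 20.6% and 22.9% with TSA, which overlap. Col18a1 alone took 54.5% and 54.1%, 39.4% and 37.1%, 62.5% and 59.7%, and 52.0% and 45.9% in the same order. Fibrillar genes took 7.87% and 8.60% in wild type cells with DMSO, 8.79% and 10.2% with TSA, 3.48% and 3.76% in TKO cells with DMSO and 5.85% and 7.46% with TSA, so the TKO DMSO libraries had the smallest fibrillar share. The other types took 13.5% and 14.99% in wild type cells with DMSO, 24.4% and 25.2% with TSA, 13.6% and 15.9% in TKO cells with DMSO and 21.6% and 23.7% with TSA. These shares were not tested.

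**Figure D2:**
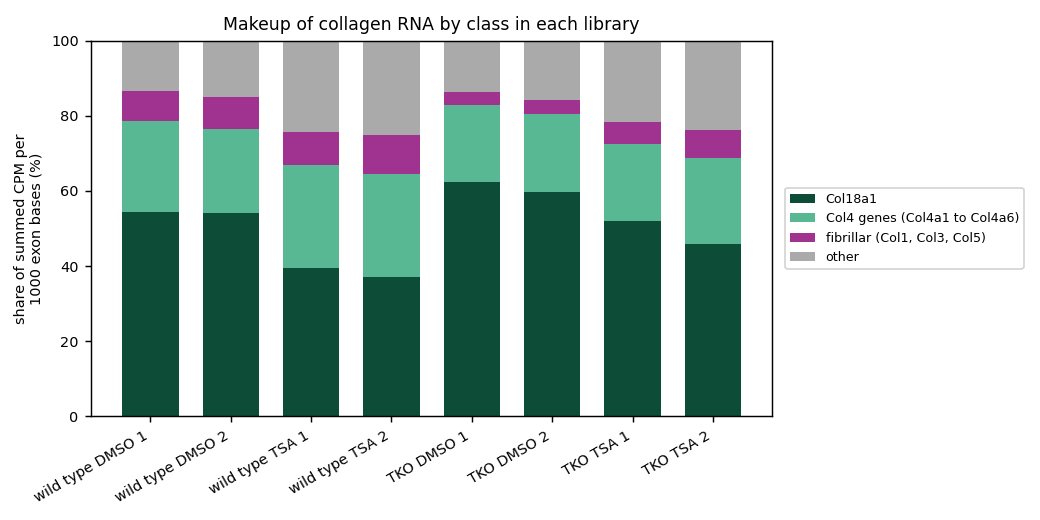
Share of summed CPM per kb (y axis, in percent) taken by Col18a1, the 6 Col4 genes, the 6 fibrillar genes and the 31 other collagen genes in each of the 8 libraries (x axis). The Col18a1 segment is smallest in the 2 wild type TSA libraries, at 39.4% and 37.1%, and the fibrillar segment in the 2 TKO DMSO libraries, at 3.48% and 3.76%.

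TSA raised transcripts of most collagen genes in both genotypes. In wild type cells 27 of the 43 tested members rose and 3 fell (Col18a1, Col3a1 and Col5a2), where 27% of all tested genes rose and 25.9% fell. In TKO cells 28 rose and 2 fell (Col5a2 and Col8a2), where 30.8% of all genes rose and 27.9% fell. So 30 members passed in each genotype, where 52.8% of all tested genes passed in wild type and 58.7% in TKO cells. The median log2 fold change of the members was 1.19 in wild type and 1.52 in TKO cells, against 0.01 and 0.04 over all tested genes. In all, 21 members rose in both genotypes, 34 rose in at least 1, and Col5a2 fell in both. These joint counts were not made over all tested genes, so they have no background share. By class, 5 of 7 basement membrane, 2 of 6 fibrillar and 20 of 30 other genes rose in wild type cells, and 4, 4 and 20 in TKO cells. Among the 9629 tested genes with a mean of 0.419 to 37.99 CPM, a range set after the values were seen because it holds 40 of the tested members, 33.9% rose in wild type and 36.8% in TKO cells, and of the 40 members 26 and 27 did. Scaling by total counts alone shifted the median of all genes to 0.22 in wild type and 0.19 in TKO cells, with 5812 genes higher and 2433 lower in wild type in place of 4266 and 4092, and 5908 higher and 3267 lower in TKO in place of 4872 and 4412. Upper quartile scaling shifted it to 0.16 and 0.11, with 5365 higher and 2794 lower in wild type cells. Under these scalings 35 and 32 members rose in wild type and 29 and 28 in TKO cells, and 1 fell in each.

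Marker lists differed in how they moved with TSA. Of all tested genes 27% rose and 25.9% fell in wild type cells, and 30.8% rose and 27.9% fell in TKO cells. Of the 8 ES cell markers 6 were lower in both genotypes, and their summed level was 3330 and 3730 CPM in wild type cells with DMSO, 2135 and 1900 with TSA, 4144 and 4492 in TKO cells with DMSO and 2179 and 1844 with TSA. Of 8 trophoblast markers 6 were higher in wild type and 5 in TKO cells, and their sum went from 66.1 and 69.1 to 208 and 224 CPM in wild type and from 48.4 and 70.9 to 267 and 265 in TKO cells. Elf5 and Plac1 were at 0 in 1 wild type DMSO library. Of the 5 tested cartilage markers 4 were higher in each genotype and Matn1 was lower in TKO cells. The sum of the 6 listed went from 27.4 and 35.1 to 68.0 and 81.6 CPM in wild type and from 30.2 and 44.03 to 70.8 and 75.4 in TKO cells, with Sox9 and Hapln1 at 0 in at least 1 DMSO library. Of the 12 tested fibroblast and mesenchymal markers 4 were higher and 1 lower in wild type cells, and 8 higher and 1 lower in TKO cells. Of 11 primitive and parietal endoderm markers 2 were higher and 1 lower in wild type cells, and 2 higher and 2 lower in TKO cells. The shorter lists gave 1 of 5 visceral endoderm markers higher in wild type and 2 higher and 2 lower in TKO cells, 1 of 4 endothelial markers higher and 3 lower in each genotype, and 1 of 5 neural markers higher with 4 lower in wild type and 3 in TKO cells. The part of these cells or programmes in the collagen response was not tested.

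**Figure D3:**
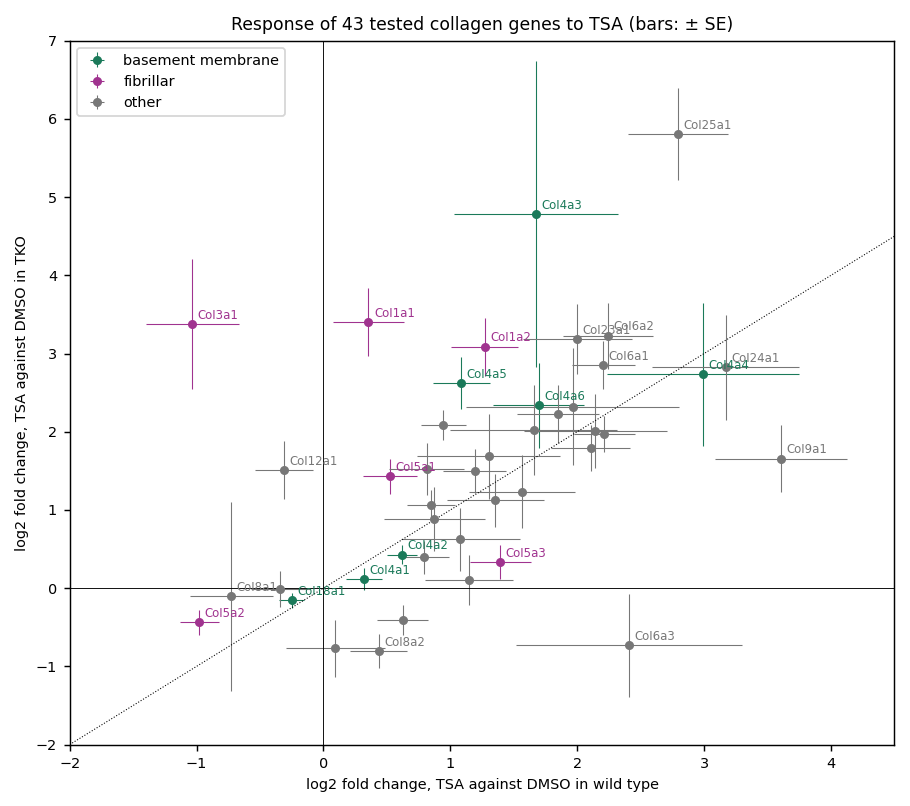
Log2 fold change of TSA against DMSO in wild type (x axis) and in TKO cells (y axis) for the 43 tested collagen genes, with bars of ± 1 SE, coloured by class; the dotted line marks equal change. Most points lie at the upper right, and Col3a1 and Col1a1 lie far above the line, at 3.38 and 3.40 in TKO against -1.03 and 0.35 in wild type cells.

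Between genotypes, more collagen genes were lower than higher in TKO cells. In DMSO 16 of the 43 tested members were lower in TKO than in wild type cells and 3 higher (Col5a3, Col8a2 and Col9a2), where 10.7% of all tested genes were lower and 9.63% higher and 20.4% passed in all. In TSA 11 were lower and 0 higher by edgeR, where 8.38% of all genes were lower and 10% higher. DESeq2 called 10 lower and 0 higher, and at an unadjusted p below 0.05 edgeR had 15 lower and 1 higher. The median log2 fold change of the members was -0.50 in DMSO and -0.32 in TSA, against -0.01 and 0.00 over all tested genes. Summed over all 44 genes the level did not separate the genotypes in DMSO, at 1199 and 989 CPM in wild type and 1017 and 1056 in TKO cells. Col18a1 made up most of each sum, at 626 and 526 CPM in wild type and 636 and 638 in TKO cells. The remaining members together were higher in both wild type libraries. By class, the 6 Col4 genes overlapped, at 314 and 245 against 235 and 251 CPM. Fibrillar genes summed to 103 and 89.7 against 42.6 and 47.8, and the other types to 155 and 128 against 104 and 120. The 16 comprised 4 of 7 basement membrane, 5 of 6 fibrillar and 7 of 30 other genes, and the 11 comprised 4, 2 and 5. In all, 10 members were lower in TKO cells under both treatments, and 13 of the 16 that were lower in DMSO rose with TSA in TKO cells. The comparisons behind the 13 share the TKO DMSO libraries, so low values there favour both calls. Neither joint count was made over all tested genes, so neither can be read as a trait of collagen genes. Among the 9629 genes of the level range above, 11.05% were lower in TKO DMSO, against 15 of the 40 members in it. The counts moved with single libraries. In DMSO 12 members differed without wild type DMSO library 1 and 11 without TKO DMSO library 2, in place of 19, and in TSA 7 differed without wild type TSA library 1 and 7 without TKO TSA library 1, in place of 11. No called member changed sign under any of the 16 alternative settings.

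Markers of fibroblast and mesenchymal cells had a lower sum in every TKO library than in every wild type library. Their summed level over the 16 genes listed was 478 and 230 CPM in wild type cells with DMSO, 516 and 277 with TSA, 56.9 and 38.7 in TKO cells with DMSO and 65.6 and 61.0 with TSA. In wild type cells most of it came from Tagln, an actin-binding protein of smooth muscle and activated fibroblasts, at 351 and 153, 405 and 190, 20.5 and 7.64, and 7.92 and 1.70 CPM in the same order. Of the 12 tested, 6 were lower and 2 higher in TKO DMSO, and 6 lower and 1 higher in TKO TSA. Over all tested genes 10.7% were lower and 9.63% higher in DMSO, and 8.38% lower and 10% higher in TSA. Of the 16 listed, Fap was at 0 in all 8 libraries, Dcn was at most 1.30 CPM, and Twist2, Prrx1, Lum and Dcn were at 0 in at least 1 library. Markers of primitive and parietal endoderm, cells that secrete much basement membrane, moved the other way, with 7 of 11 higher in TKO DMSO and 5 in TKO TSA, and a sum of 413 and 364 CPM in wild type cells with DMSO, 400 and 395 with TSA, 691 and 711 in TKO cells with DMSO and 642 and 687 with TSA. Lama1, whose values are given further below, made up most of the genotype difference in this sum under each treatment. Each of the 11 had counts in every library, though 5 and 3 of them were under 1 CPM in wild type DMSO libraries 1 and 2. Other lists also differed in TKO DMSO, with 3 of 8 ES cell and 2 of 5 visceral endoderm markers higher. Of 8 trophoblast markers 1 was higher and 3 lower. Cartilage markers summed to 27.4 and 35.1 CPM in wild type DMSO and 30.2 and 44.03 in TKO DMSO. Those sums were 87.9 and 116 against 123 and 167 for endothelial markers, and 417 and 334 against 323 and 295 for neural markers. The part of any of these cell types in the collagen differences was not tested.

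**Figure D4:**
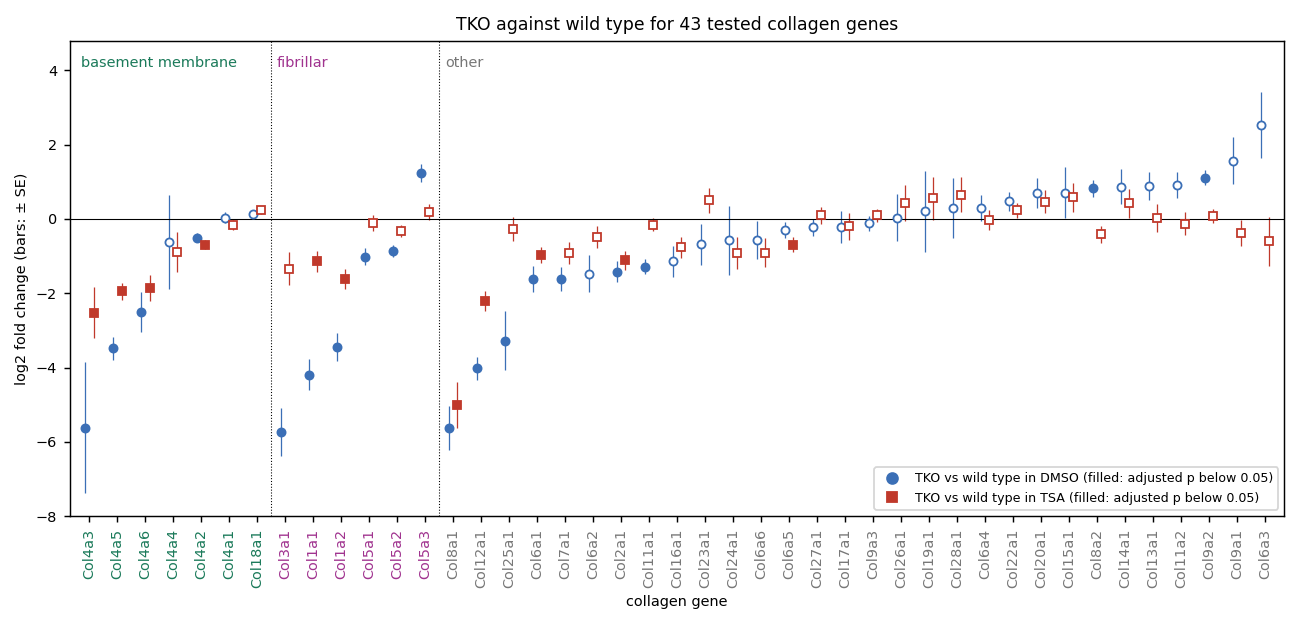
Log2 ratio of TKO to wild type cells (y axis, bars ± 1 SE) for the 43 tested collagen genes (x axis), in DMSO (blue circles) and in TSA (red squares); filled symbols have an edgeR adjusted p below 0.05. In DMSO Col1a1 lies at -4.19, Col12a1 at -4.02 and Col4a5 at -3.48. The lower points of Col3a1, Col8a1 and Col4a3 are fitted values that rest on 0 or 1 count in each TKO DMSO library, and that of Col4a3, at 0 in both, is no measure of size. Most red squares lie nearer 0 than the blue circle of the same gene.

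Col18a1 (chromosome 10, 77052179 to 77166530, - strand), the heparan sulfate bearing collagen of basement membranes, passed the test in 1 comparison, a fall with TSA in wild type cells. It stood at 626 and 526 CPM in wild type cells with DMSO, 496 and 472 with TSA, 636 and 638 in TKO cells with DMSO and 578 and 564 with TSA. The TSA libraries lay below the DMSO libraries of each genotype. The log2 fold change was -0.25 ± 0.10 in wild type (edgeR adjusted p = 0.0463) and -0.16 ± 0.10 in TKO cells (adjusted p = 0.181). The wild type call was lost under 13 of the 16 alternative settings, among them 7 of the 8 fits that left out 1 library (adjusted p 0.0507 to 0.301), all but the one without wild type DMSO library 2, and under total-count scaling the value was -0.05 (adjusted p = 0.685).

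Col4a1 and Col4a2 encode the chains of the most widespread type IV network, alpha1(IV) and alpha2(IV). By the deposited exons they start 3 bases apart on opposite strands of chromosome 8 (11198423 to 11312826 and 11312829 to 11449287). The RefSeq start of Col4a2, used for its promoter window, lies 24 bases from the deposited one. Col4a1 was at 194 and 142 CPM in wild type cells with DMSO, 204 and 215 with TSA, 166 and 179 in TKO cells with DMSO and 169 and 204 with TSA. It passed the test in none of the 5 comparisons, and its largest log2 fold change was 0.32 ± 0.14 with TSA in wild type cells (edgeR adjusted p = 0.0741). Col4a2 was at 106 and 89.6 CPM, 153 and 147, 67.5 and 70.6, and 83.0 and 103 in the same order. Its wild type libraries lay above its TKO libraries within each treatment. Col4a2 rose with TSA by 0.62 ± 0.12 in wild type (edgeR adjusted p = 0.00142) and 0.43 ± 0.12 in TKO cells (adjusted p = 0.01). It was lower in TKO by -0.50 ± 0.12 in DMSO (adjusted p = 0.0137) and -0.69 ± 0.12 in TSA (adjusted p = 0.00289). The ratio of Col4a1 to Col4a2 per kb accordingly ran from 1.54 to 1.78 in wild type cells with DMSO, 1.29 to 1.43 with TSA, 2.39 to 2.46 in TKO cells with DMSO and 1.93 to 1.98 with TSA, with no overlap between groups. The Col4a2 difference in DMSO was lost without wild type DMSO library 1, TKO DMSO library 1 or TKO DMSO library 2 (adjusted p 0.0875, 0.0942 and 0.0716), and its rise in TKO cells without TKO DMSO library 1 or TKO TSA library 2 (adjusted p 0.0729 and 0.123).

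Col4a5 and Col4a6 encode the type IV chains found in kidney, skin and smooth muscle basement membranes and start 1343 bases apart, head to head, on chromosome X (141475419 to 141689235 and 141165403 to 141474076). Col4a5 was at 11.6 and 11.5 CPM in wild type cells with DMSO, 24.3 and 24.7 with TSA, 0.821 and 1.24 in TKO cells with DMSO and 4.53 and 8.10 with TSA. No 2 groups overlapped, with wild type TSA highest and TKO DMSO lowest. Col4a5 was 11.2-fold lower in TKO than in wild type cells in DMSO (log2 -3.48 ± 0.32, edgeR adjusted p = 5.21e-05) and 3.86-fold lower in TSA (-1.95 ± 0.23, adjusted p = 0.000384). TSA raised it by 1.09 ± 0.22 in wild type (adjusted p = 0.00215) and 2.62 ± 0.33 in TKO cells (adjusted p = 6.79e-05), and the difference between these effects did not pass the test (1.54 ± 0.41, adjusted p = 0.104). All 4 Col4a5 calls held under each alternative setting. Col4a6 was at 2.57 and 1.46 CPM, 5.62 and 7.61, 0.411 and 0.291, and 1.22 and 2.39. Here too wild type TSA was highest and TKO DMSO lowest, while wild type DMSO and TKO TSA overlapped. Its log2 fold changes were 1.70 ± 0.36 and 2.34 ± 0.54 with TSA in wild type and TKO cells (edgeR adjusted p = 0.0026 and 0.0034), -2.50 ± 0.54 in TKO DMSO (adjusted p = 0.00797) and -1.86 ± 0.36 in TKO TSA (adjusted p = 0.00543). Its TKO DMSO call, which rests on 6 and 4 counts, was lost without wild type DMSO library 1 or TKO DMSO library 2 (adjusted p 0.0723 and 0.0701).

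Col4a3 and Col4a4, whose chains build the mature glomerular network with Col4a5, start 72 bases apart, head to head, on chromosome 1 (82586921 to 82722059 and 82450723 to 82586849) and were near the limit of detection. Col4a3 had 9 and 2 counts in wild type cells with DMSO, 27 and 15 with TSA, 0 and 0 in TKO cells with DMSO and 1 and 6 with TSA. Col4a3 was lower in TKO DMSO than in wild type DMSO (edgeR adjusted p = 0.0478). The wild type DMSO mean was 1.90-fold above a floor of 3 counts in each TKO DMSO library. That mean rests mostly on library 1, since library 2 was itself under 3 counts, so the fold is no lower bound. In TSA Col4a3 was lower in TKO by -2.52 ± 0.70 (adjusted p = 0.0317), and with TSA it rose in wild type by 1.68 ± 0.65 (adjusted p = 0.0498). DESeq2 made neither of these last calls (adjusted p = 0.131 and 0.203), nor the rise of Col4a4 in TKO cells given next (0.0897). Col4a4 had 1 and 2 counts, 14 and 16, 0 and 2, and 5 and 11 in the same order, so the TSA libraries were higher in each genotype. The TSA to DMSO ratio of Col4a4 was 8.48 in wild type (95% counting interval 2.64 to 43.4, edgeR adjusted p = 0.00688) and 7.39 in TKO cells (1.74 to 66.2, adjusted p = 0.0233). At these counts the calls depended on single libraries. The Col4a3 call in TKO DMSO was lost without any of 5 libraries (wild type DMSO 1, either of wild type TSA, either of TKO DMSO; adjusted p 0.0513 to 0.274). That in TKO TSA was lost without wild type TSA 1 or TKO TSA 1 (0.202 and 0.156), and that with TSA in wild type without any of 5 (wild type DMSO 2, either of wild type TSA, either of TKO DMSO; 0.0591 to 0.241). The Col4a4 calls were lost without wild type DMSO 1 in wild type (0.0585) and without TKO DMSO 1 or TKO TSA 2 in TKO cells (0.158 and 0.172).

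Type I collagen, the main fibre protein of bone, skin and tendon, was low in TKO DMSO for both of its chains. Col1a1 (chromosome 11, 94936270 to 94951856, + strand) was at 12.1 and 12.7 CPM in wild type cells with DMSO, 13.3 and 18.5 with TSA, 0.684 and 0.655 in TKO cells with DMSO and 4.53 and 9.73 with TSA. TKO DMSO lay below every other library, and TKO TSA lay between TKO DMSO and wild type DMSO. Col1a1 was 18.3-fold lower in TKO in DMSO (log2 -4.19 ± 0.42, edgeR adjusted p = 0.000101) and 2.21-fold lower in TSA (-1.14 ± 0.29, adjusted p = 0.0197). TSA raised it 10.6-fold in TKO cells (3.40 ± 0.44, adjusted p = 7.43e-05), and in wild type cells the change of 0.35 ± 0.28 did not pass the test (adjusted p = 0.307). Col1a2 (chromosome 6, 4505697 to 4541543, + strand) was at 11.3 and 18.1 CPM, 30.8 and 40.0, 1.09 and 1.60, and 8.39 and 14.4 in the same order. The wild type TSA libraries were highest, the TKO DMSO libraries lowest, and wild type DMSO overlapped TKO TSA. Col1a2 was 10.9-fold lower in TKO in DMSO (log2 -3.44 ± 0.37, edgeR adjusted p = 0.000156) and 3.09-fold lower in TSA (-1.63 ± 0.27, adjusted p = 0.00238). TSA raised it 2.41-fold in wild type (1.27 ± 0.27, adjusted p = 0.00235) and 8.48-fold in TKO cells (3.08 ± 0.38, adjusted p = 5.28e-05). The 4 calls of Col1a2 held under each alternative setting. Of the 3 Col1a1 calls, that in TSA was lost without wild type TSA library 2 or TKO TSA library 1 (adjusted p 0.103 and 0.0882), and was -1.80 without TKO TSA library 2, where the rise in TKO cells was 2.74. The ratio of Col1a1 to Col1a2 per kb was 1.16 and 0.771 in wild type DMSO and 0.448 to 0.738 in the other 6 libraries.

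Col3a1 (chromosome 1, 45311538 to 45349706, + strand), the fibrillar collagen of vessel walls and hollow organs, had 1 count in each TKO DMSO library. It had 73 and 40 counts in wild type cells with DMSO, 45 and 20 with TSA, 1 and 1 in TKO cells with DMSO and 11 and 14 with TSA, which is 5.21 and 3.24 CPM, 2.75 and 1.36, 0.0684 and 0.0728, and 0.744 and 0.879. The 4 groups did not overlap, with the order wild type DMSO, wild type TSA, TKO TSA and TKO DMSO from high to low. The wild type to TKO ratio in DMSO was 60.8 (95% counting interval 16.4 to 508, edgeR adjusted p = 0.0002), and the TSA to DMSO ratio in TKO cells was 11.5 (2.88 to 101, adjusted p = 0.00491). In wild type cells Col3a1 fell with TSA by 1.03 ± 0.37 on the log2 scale (adjusted p = 0.0341), and in TSA the difference between genotypes of -1.34 ± 0.44 did not pass the test (adjusted p = 0.0573). The fall in wild type was lost without wild type DMSO library 1 or wild type TSA library 2 (adjusted p 0.256 and 0.245), by DESeq2 (0.132), with only the 2 groups compared in the fit (0.0581), with total-count scaling (0.0789) and with upper quartile scaling (0.0631), while the rise and the loss in TKO cells held under each alternative.

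**Figure D5:**
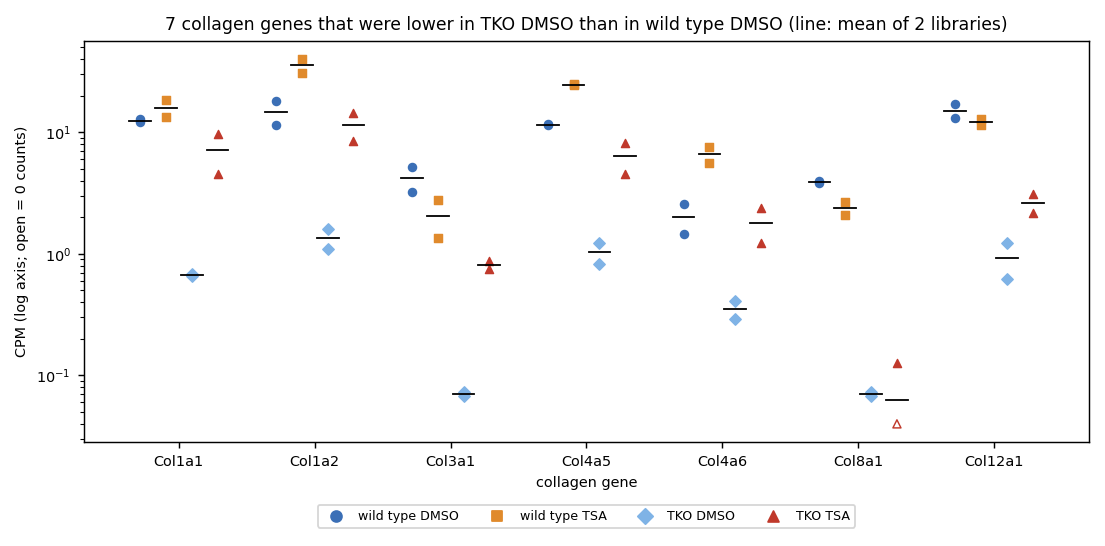
CPM on a log axis (y axis) for 7 collagen genes (x axis) in each of the 8 libraries, coloured by group, with a line at the mean of the 2 libraries; an open symbol marks 0 counts. TKO DMSO is the lowest group for 6 of the 7 genes, and Col8a1 is as low in TKO TSA as in TKO DMSO.

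Type V collagen, which seeds fibrils and sets their diameter, was divided among its chains. Col5a1 (chromosome 2, 27886425 to 28039510, + strand) was at 44.04 and 27.1 CPM in wild type cells with DMSO, 49.2 and 53.3 with TSA, 16.8 and 18.5 in TKO cells with DMSO and 38.7 and 56.3 with TSA. TKO DMSO was lowest and the TSA groups overlapped. Col5a1 was lower in TKO in DMSO by -1.02 ± 0.23 (edgeR adjusted p = 0.00943) and rose with TSA in TKO cells by 1.43 ± 0.22 (adjusted p = 0.000284). In wild type cells the change was 0.52 ± 0.21 (adjusted p = 0.0588). Its TKO DMSO call was lost without wild type DMSO library 1, TKO DMSO library 1 or TKO DMSO library 2 (adjusted p 0.0829, 0.0729 and 0.0521). Col5a2 (chromosome 1, 45374331 to 45503282, - strand), the partner chain of Col5a1 and the neighbour of Col3a1, was at 26.3 and 22.7 CPM, 12.0 and 12.8, 14.6 and 12.4, and 10.1 and 9.80 in the same order. It was highest in wild type DMSO and fell with TSA by 0.98 ± 0.15 on the log2 scale in wild type (edgeR adjusted p = 0.000411) and by 0.44 ± 0.16 in TKO cells (adjusted p = 0.0341). It was also lower in TKO in DMSO by -0.86 ± 0.15 (adjusted p = 0.00283). The fall in TKO cells was lost without TKO DMSO library 1, TKO TSA library 1 or TKO TSA library 2 (adjusted p 0.204, 0.0828 and 0.13), by DESeq2 (0.0853), and with total-count (0.144) or upper quartile scaling (0.0672). Col5a1 to Col5a2 per kb, chains that meet in 1 heterotrimer, stood at 0.906 to 1.32 in the 4 DMSO libraries and 3.00 to 4.53 in the 4 TSA libraries.

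Col5a3 (chromosome 9, 20770050 to 20815034, - strand), the third type V chain, moved opposite to the other fibrillar genes between genotypes. It was at 4.21 and 5.92 CPM in wild type cells with DMSO, 13.01 and 13.5 with TSA, 9.37 and 14.6 in TKO cells with DMSO and 14.3 and 15.8 with TSA. Wild type DMSO lay below all other libraries. Col5a3 was 2.37-fold higher in TKO in DMSO (log2 1.24 ± 0.24, edgeR adjusted p = 0.0047) and rose with TSA 2.62-fold in wild type cells (1.39 ± 0.24, adjusted p = 0.000743), and its change with TSA in TKO cells was 0.33 ± 0.22 (adjusted p = 0.208). The difference between genotypes was lost without TKO DMSO library 2 (adjusted p = 0.0501).

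The response to TSA differed between genotypes by the interaction test for 2 members, both fibrillar, where 0.879% of all tested genes had a larger and 0.468% a smaller log2 effect in TKO. For Col3a1 the effect of TSA in TKO minus that in wild type cells was 4.41 ± 0.90 on the log2 scale (edgeR adjusted p = 0.0438), and its 2 effects had opposite signs (it was 5.01 without wild type TSA library 1). For Col1a1 it was 3.05 ± 0.53 (adjusted p = 0.0287), and 2.39 without TKO TSA library 2. Next in line were Col11a1 at 1.14 ± 0.26 (adjusted p = 0.0635), Col12a1 at 1.82 ± 0.43 (0.0717), Col8a2 at -1.24 ± 0.31 (0.0852) and Col1a2 at 1.82 ± 0.47 (0.0977), none of which passed. The members called went from 2 to 0 without wild type DMSO library 1, TKO DMSO library 1 or TKO DMSO library 2, where the adjusted p was 0.0906, 0.153 and 0.199 for Col3a1 and 0.0586, 0.105 and 0.156 for Col1a1. Of the 2, 1 was left without wild type TSA library 1 (Col1a1 lost, 0.0577), wild type TSA library 2 (Col3a1 lost, 0.0648) or TKO TSA library 2 (Col3a1 lost, 0.138). Without TKO TSA library 1, 3 members were called, Col3a1 not among them (0.061), and 6 without wild type DMSO library 2. With no filter on low counts 9 members were called and by DESeq2 7. Upper quartile scaling changed the split over all genes from 139 larger and 74 smaller to 96 and 85.

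Other fibril-forming collagens, those of cartilage and of developing bone, rose with TSA in 4 of 5 cases in wild type and 3 of 5 in TKO cells. Col2a1 (chromosome 15, 97975602 to 98004724, - strand), the main cartilage collagen, was at 20.3 and 10.7 CPM in wild type cells with DMSO, 39.5 and 31.8 with TSA, 6.43 and 5.24 in TKO cells with DMSO and 14.5 and 18.4 with TSA. It rose by 1.19 ± 0.25 in wild type (edgeR adjusted p = 0.00238) and 1.49 ± 0.28 in TKO cells (adjusted p = 0.000952). It was lower in TKO by -1.42 ± 0.28 in DMSO (adjusted p = 0.00549) and -1.12 ± 0.25 in TSA (adjusted p = 0.0106). Both genotype calls hung on single libraries: the first was lost without TKO DMSO library 2 (0.0587), the second without wild type TSA library 1 or TKO TSA library 1 (0.0789 and 0.0638). Its fibril partner Col11a1 (chromosome 3, 114030540 to 114220326, + strand) was at 21.2 and 14.3 CPM, 36.0 and 32.6, 7.25 and 7.35, and 28.1 and 33.7 in the same order. TKO DMSO was lowest, and the TSA groups overlapped. Col11a1 rose by 0.95 ± 0.18 in wild type (edgeR adjusted p = 0.00123) and 2.08 ± 0.19 in TKO cells (adjusted p = 1.07e-05) and was lower in TKO in DMSO by -1.29 ± 0.20 (adjusted p = 0.00127), under each alternative setting. Col11a2 (chromosome 17, 34039437 to 34066242, + strand), the partner chain of type XI, had 12 and 12 counts, 31 and 32, 29 and 20, and 28 and 29. It was lowest in wild type DMSO and rose in wild type cells by 1.15 ± 0.35 (edgeR adjusted p = 0.0174), a call lost by DESeq2 (0.0943) and without wild type DMSO library 1 or wild type TSA library 2 (0.0855 and 0.095). The ratio of Col11a1 to Col11a2 per kb was 2.82 and 3.89 in TKO DMSO and 11.4 to 19.1 in the other 6 libraries. Col24a1 (chromosome 3, 145292472 to 145552005, + strand), a fibrillar collagen of developing bone, had 2 and 5 counts, 29 and 47, 4 and 1, and 16 and 24. It was higher with TSA by 3.17 ± 0.58 in wild type (edgeR adjusted p = 0.00106) and 2.82 ± 0.67 in TKO cells (adjusted p = 0.00399), and leaving out a DMSO library of the genotype moved the first to between 2.58 and 4.03 and the second to between 2.21 and 4.00. Col27a1, the remaining member of this kind, passed in no comparison and stayed between 4.77 and 7.49 CPM.

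Fibril-associated collagens, which coat fibrils and link them to other matrix, rose with TSA in 6 of 9 cases in wild type and 7 of 9 in TKO cells. Col12a1 (chromosome 9, 79598991 to 79718678, - strand), which binds type I fibrils in tendon and ligament, was at 17.1 and 12.97 CPM in wild type cells with DMSO, 12.8 and 11.4 with TSA, 0.616 and 1.24 in TKO cells with DMSO and 2.17 and 3.08 with TSA. Every TKO library lay below every wild type library. It was 16.3-fold lower in TKO in DMSO (log2 -4.02 ± 0.31, edgeR adjusted p = 1.75e-05) and 4.60-fold lower in TSA (-2.20 ± 0.27, adjusted p = 0.000395), under each alternative setting. It rose with TSA in TKO cells by 1.51 ± 0.37 (adjusted p = 0.00466, lost without TKO DMSO library 1 at 0.0544). Col22a1 (chromosome 15, 71798476 to 72034227, - strand), a collagen of tissue junctions such as those of muscle and tendon, was at 7.35 and 5.59 CPM, 25.6 and 34.9, 8.48 and 9.61, and 28.5 and 42.4 in the same order. It rose in both genotypes, by 2.21 ± 0.24 in wild type (edgeR adjusted p = 4.78e-05) and 1.97 ± 0.23 in TKO cells (adjusted p = 3.64e-05), with a difference of -0.24 ± 0.33 that did not pass (adjusted p = 0.805). Col16a1 (chromosome 4, 130047840 to 130099277, + strand) was at 3.71 and 2.03 CPM, 10.1 and 10.9, 1.03 and 1.60, and 4.60 and 7.66. It rose by 1.85 ± 0.32 in wild type (edgeR adjusted p = 0.000798) and 2.23 ± 0.37 in TKO cells (adjusted p = 0.00043), and its lower TKO level in DMSO, -1.14 ± 0.41, did not pass (adjusted p = 0.0702). Col20a1 (chromosome 2, 180986535 to 181017540, + strand) had 19 and 8 counts, 38 and 43, 21 and 26, and 58 and 53. Its rises of 1.35 ± 0.38 and 1.12 ± 0.34 (edgeR adjusted p = 0.0117 and 0.0145) were lost without wild type DMSO library 2 or wild type TSA library 2 (0.0829 and 0.0709) and without TKO DMSO library 1 or TKO TSA library 1 (0.108 and 0.0719), respectively, and the second also by DESeq2 (0.0502). Col19a1, with 2 to 17 counts per library, rose in TKO cells with a TSA to DMSO ratio of 5.17 (95% counting interval 1.97 to 17.2, edgeR adjusted p = 0.02), a call lost without TKO DMSO library 1, TKO DMSO library 2 or TKO TSA library 1 (0.121, 0.0652 and 0.109) and by DESeq2 (0.0792). Col14a1, with 5 to 34 counts, passed in no comparison.

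Type IX collagen, a heterotrimer on cartilage fibrils, showed 3 patterns in its 3 genes. Col9a1 (chromosome 1, 24177610 to 24252738, + strand) had 4 and 4 counts in wild type cells with DMSO, 45 and 72 with TSA, 10 and 16 in TKO cells with DMSO and 33 and 57 with TSA. It rose 12.2-fold in wild type (log2 3.61 ± 0.52, edgeR adjusted p = 0.000248) and 3.15-fold in TKO cells (1.66 ± 0.43, adjusted p = 0.00669, lost without TKO DMSO library 1 or TKO TSA library 2 at 0.0692 and 0.0655), and the difference did not pass (-1.95 ± 0.73, adjusted p = 0.243). Col9a2 (chromosome 4, 121039566 to 121055325, + strand) was at 11.4 and 17.4 CPM, 21.3 and 23.04, 27.2 and 35.0, and 21.5 and 25.3 in the same order. It was lowest in wild type DMSO and highest in TKO DMSO, 2.16-fold higher in TKO in DMSO (log2 1.11 ± 0.20, edgeR adjusted p = 0.00297, under each alternative). Col9a2 rose with TSA in wild type cells by 0.63 ± 0.20 (adjusted p = 0.0223, lost without wild type DMSO library 1 or wild type TSA library 2 at 0.168 and 0.0893), and its change in TKO cells was -0.41 ± 0.19 (adjusted p = 0.0877). Col9a3 (chromosome 2, 180598222 to 180622185, + strand) was at 6.00 and 5.75 CPM, 11.5 and 9.65, 5.2003 and 5.68, and 12.0 and 10.7. It rose by 0.85 ± 0.19 in wild type (edgeR adjusted p = 0.00318) and 1.07 ± 0.19 in TKO cells (adjusted p = 0.000593) and differed between genotypes by -0.11 ± 0.20 in DMSO and 0.11 ± 0.17 in TSA (adjusted p = 0.741 and 0.717). Exons of Col9a3 share 8.05% of their bases with those of Tcfl5 on the opposite strand, and the strand setting of the counting is not given in the sources used here, so reads of the 2 genes may be mixed.

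The beaded filament collagens of type VI, which link cells to the surrounding matrix, all 6 rose with TSA in wild type cells, and 4 of 6 in TKO cells. Col6a1 and Col6a2, which lie on the same strand of chromosome 10 with starts 102640 bases apart (76708792 to 76726044 and 76595756 to 76623404), moved together. Col6a1 was at 2.07 and 1.86 CPM in wild type cells with DMSO, 8.61 and 9.65 with TSA, 0.616 and 0.655 in TKO cells with DMSO and 3.99 and 5.27 with TSA. Col6a2 was at 1.28 and 1.30 CPM, 6.23 and 6.05, 0.205 and 0.728, and 3.65 and 5.09 in the same order. For both, wild type TSA was highest and TKO DMSO lowest with no overlap between groups. Col6a1 rose 4.61-fold in wild type (log2 2.21 ± 0.25, edgeR adjusted p = 6.41e-05) and 7.23-fold in TKO cells (2.85 ± 0.31, adjusted p = 2.71e-05). Col6a2 rose 4.73-fold (2.24 ± 0.35, adjusted p = 0.000415) and 9.37-fold (3.23 ± 0.42, adjusted p = 8.84e-05). Col6a1 was lower in TKO by -1.62 ± 0.35 in DMSO (edgeR adjusted p = 0.00821) and -0.97 ± 0.22 in TSA (adjusted p = 0.0122). The first was lost without TKO DMSO library 1 or 2 (0.056 and 0.0513) and the second without wild type TSA library 1 or 2 or TKO TSA library 1 (0.0578, 0.0709 and 0.0883). Col6a2 did not pass in either (-1.47 ± 0.51 and -0.49 ± 0.30, adjusted p = 0.0622 and 0.28), and its rise in TKO cells moved between 2.57 and 4.35 without TKO DMSO library 1 or 2, which have 3 and 10 counts.

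Of the remaining type VI genes, Col6a4, Col6a5 and Col6a6 neighbour each other on chromosome 9. Col6a4 (105990318 to 106096691, - strand) was at 3.07 and 4.78 CPM in wild type cells with DMSO, 12.8 and 20.9 with TSA, 3.90 and 5.68 in TKO cells with DMSO and 14.1 and 19.03 with TSA. It rose by 2.11 ± 0.31 in wild type (edgeR adjusted p = 0.000276) and 1.79 ± 0.30 in TKO cells (adjusted p = 0.000426). Col6a6 (105689417 to 105828085, - strand) had 10 and 19 counts, 45 and 57, 7 and 14, and 28 and 26. Its rises of 1.57 ± 0.42 (edgeR adjusted p = 0.00916) and 1.24 ± 0.47 (adjusted p = 0.0417) were lost without wild type DMSO library 1 or wild type TSA library 2 (0.0799 and 0.066), and without TKO DMSO library 1 or either TKO TSA library (0.267, 0.13 and 0.0804) or by DESeq2 (0.0883). Col6a5, at 6.04 to 15.6 CPM, rose in wild type cells (0.79 ± 0.20, edgeR adjusted p = 0.00719, lost without wild type TSA library 1 at 0.0505) and was lower in TKO in TSA (-0.69 ± 0.20, adjusted p = 0.0336), lost by DESeq2 (0.0525) and without wild type TSA library 1, wild type TSA library 2 or TKO TSA library 2 (0.216, 0.0566 and 0.237). Col6a3, the long chain of classical type VI collagen, had at most 11 counts in any library. Its TSA to DMSO ratio in wild type was 5.65 (95% counting interval 1.68 to 29.7, edgeR adjusted p = 0.0405), lost by DESeq2 (0.109) and without any of 5 libraries (wild type DMSO 1, either of wild type TSA, either of TKO DMSO; 0.0591 to 0.227). How the authors' counting assigned reads that match several members of a chain family is not given in the sources used here, so values of near-identical chains are uncertain to that extent.

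Col7a1 (chromosome 9, 108953745 to 108984875, + strand), the anchoring fibril of skin, was at 25.8 and 11.7 CPM in wild type cells with DMSO, 39.6 and 26.6 with TSA, 6.02 and 6.26 in TKO cells with DMSO and 16.1 and 19.2 with TSA. The wild type libraries of 1 treatment differed from each other by more than those of TKO. Col7a1 was 3.07-fold lower in TKO in DMSO (log2 -1.62 ± 0.33, edgeR adjusted p = 0.00626, lost without wild type DMSO library 1 at 0.0509) and rose with TSA in TKO cells by 1.52 ± 0.33 (adjusted p = 0.00238). Its rise in wild type, 0.81 ± 0.29 (adjusted p = 0.0371), was lost without any of 4 libraries (wild type DMSO 2, wild type TSA 1, either of TKO DMSO; 0.0531 to 0.245) and with only the 2 groups compared in the fit (0.0644).

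The short-chain collagens of type VIII, which form the hexagonal lattice under the corneal endothelium, went apart. Col8a1 (chromosome 16, 57624256 to 57754737, - strand) had 54 and 49 counts in wild type cells with DMSO, 34 and 39 with TSA, 1 and 1 in TKO cells with DMSO and 0 and 2 with TSA. All TKO libraries were at or below 2 counts. The wild type to TKO ratio was 55.4 in DMSO (95% counting interval 14.96 to 464, edgeR adjusted p = 0.000124) and 36.1 in TSA (9.63 to 303, adjusted p = 0.000436), under each alternative, with the fitted log2 value in TSA at -4.14 without TKO TSA library 1 and -8.08 without TKO TSA library 2. Its response to TSA was -0.73 ± 0.33 in wild type cells (edgeR adjusted p = 0.0808). In TKO cells it did not pass the test with TSA and showed no rise, at 1 and 1 counts with DMSO and 0 and 2 with TSA. A further fall could not be seen from 1 count in each library. Col8a2 lay between 5.00 and 10.4 CPM in every library. It was higher in TKO in DMSO (0.82 ± 0.22, edgeR adjusted p = 0.0227, lost without wild type DMSO 1, TKO DMSO 1 or TKO DMSO 2 at 0.138, 0.147 and 0.0501). It fell with TSA in TKO cells by 0.80 ± 0.22 on the log2 scale (adjusted p = 0.00807, lost without TKO DMSO library 1 at 0.0681). Col10a1, the related collagen of hypertrophic cartilage, had 0 counts in each wild type library and 1, 4, 1 and 3 in the TKO libraries.

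Membrane-spanning collagens, which are shed from the cell surface or anchor it, include Col25a1, whose fitted change with TSA in TKO cells was the largest of the 43 tested members. Col25a1 (chromosome 3, 130180845 to 130599883, + strand) had 16 and 13 counts in wild type cells with DMSO, 100 and 137 with TSA, 3 and 0 in TKO cells with DMSO and 76 and 121 with TSA. TKO DMSO was lowest and the TSA groups overlapped. Its TSA to DMSO ratio in TKO cells was 60.6 (95% counting interval 20.5 to 297, edgeR adjusted p = 1.76e-05), which fitted as 9.54 on the log2 scale without TKO DMSO library 1 and 4.90 without library 2 in place of 5.81. In wild type it rose 6.94-fold (log2 2.80 ± 0.39, adjusted p = 0.000215). The wild type to TKO ratio in DMSO was 10.4 (3.225 to 53.4, edgeR adjusted p = 0.0138), lost without wild type DMSO library 1 or TKO DMSO library 2 (0.0625 and 0.0905). Col23a1 (chromosome 11, 51289920 to 51583925, + strand) had 11 and 16 counts, 57 and 71, 5 and 13, and 67 and 114. It rose by 2.00 ± 0.43 in wild type (edgeR adjusted p = 0.00269) and 3.18 ± 0.45 in TKO cells (adjusted p = 0.000134, 4.06 without TKO DMSO library 2). Col13a1, at 1.78 to 5.17 CPM, and Col17a1, the hemidesmosome collagen, at 1.30 to 5.03 CPM, passed in no comparison.

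The last 3 genes belong to no class above. Col26a1 (chromosome 5, 136741764 to 136883107, - strand) was at 1.07 and 3.16 CPM in wild type cells with DMSO, 3.73 and 6.59 with TSA, 0.821 and 3.49 in TKO cells with DMSO and 6.02 and 7.72 with TSA. Its libraries of 1 group differed widely, and its rise in TKO cells (1.69 ± 0.54, edgeR adjusted p = 0.0197) was lost without TKO DMSO library 1 or TKO TSA library 2 (0.149 and 0.0802) and was 3.05 without TKO DMSO library 2. Col28a1, with 1 to 22 counts per library, rose in TKO cells by 2.02 ± 0.58 (edgeR adjusted p = 0.0109), lost by DESeq2 (0.0718) and without TKO DMSO library 2 or TKO TSA library 2 (0.08 and 0.0837). Col15a1, the relative of Col18a1 in the multiplexin family, had 2 to 20 counts and rose in wild type with a ratio of 4.58 (95% counting interval 1.74 to 15.2, edgeR adjusted p = 0.00847) and TKO cells (2.01 ± 0.47, adjusted p = 0.00363), the former lost without wild type DMSO library 1 (0.0687) and by DESeq2 (0.0664).

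Within groups, the collagen genes as a set leaned to 1 library in TKO TSA, where 31 of the 41 with at least 10 counts were higher in library 2 (median log2 difference 0.35, against 0.01 over all genes). In TKO DMSO 25 of 34 were higher in library 2 (0.16 against 0.01), in wild type TSA 30 of 43 (0.11 against 0.00), and in wild type DMSO 21 of 36 were higher in library 1 (-0.10 against -0.01), among them all 6 basement membrane genes with enough counts. The collagen levels of 1 library of a group were thus often higher together than those of the other.

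Genes that make, modify, fold, cross-link, bind or break down collagen were taken from 8 fixed lists of 118 symbols, of which 111 are in the table and 98 were tested. TSA raised 39 and lowered 19 of the 98 in wild type, and raised 43 and lowered 24 in TKO cells, where 27% and 25.9% of all tested genes rose and fell in wild type and 30.8% and 27.9% in TKO cells. In TKO against wild type, 12 were higher and 25 lower in DMSO, and 11 higher and 20 lower in TSA, where the shares of all genes were 9.63% and 10.7% in DMSO and 10% and 8.38% in TSA. The same shares are the background of the counts for each list that follows. The median log2 fold changes were 0.31, 0.34, -0.14 and -0.12 in the 4 comparisons in the same order.

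Enzymes that hydroxylate and glycosylate the chains in the endoplasmic reticulum moved in both directions with TSA. Of 18 tested, 3 rose and 8 fell in wild type, and 6 rose and 7 fell in TKO cells; in TKO against wild type 4 were higher and 2 lower in DMSO, and 6 and 2 in TSA. P4ha2, a catalytic subunit of prolyl 4-hydroxylase, rose by 1.48 ± 0.27 and 1.62 ± 0.27 in wild type and TKO cells (edgeR adjusted p = 0.00112 and 0.000425), from 22.6 and 24.8 to 47.2 and 84.6 CPM in wild type. Fkbp10, a prolyl isomerase needed for type I collagen, fell by 1.28 ± 0.23 and by 1.82 ± 0.26 (adjusted p = 0.000919 and 0.00014). It was lower in TKO by -1.21 ± 0.23 in DMSO and -1.75 ± 0.26 in TSA (adjusted p = 0.0039 and 0.00117). Crtap, a partner of prolyl 3-hydroxylase, fell with TSA by 0.88 ± 0.13 and by 1.40 ± 0.13 (adjusted p = 0.000247 and 8.58e-06) and was higher in TKO DMSO (0.51 ± 0.12, adjusted p = 0.0126). Leprel4, from the prolyl 3-hydroxylase family, fell by 0.60 ± 0.21 and by 0.69 ± 0.23 (adjusted p = 0.0344 and 0.0244) and was lower in TKO (-0.89 ± 0.22 and -0.97 ± 0.23, adjusted p = 0.0152 and 0.0136). Glt25d2, a collagen galactosyltransferase, rose in TKO cells (2.09 ± 0.49, adjusted p = 0.00351) and was higher there in TSA (2.03 ± 0.47, adjusted p = 0.0131).

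Of 12 tested folding and export factors, 1 was higher and 3 lower with TSA in wild type, 1 and 5 in TKO cells, and 1 higher and 2 lower, then 2 and 1, in TKO against wild type. Serpinh1, the collagen-specific chaperone HSP47, was at 134 and 114 CPM in wild type cells with DMSO, 123 and 115 with TSA, 49.4 and 61.0 in TKO cells with DMSO and 54.3 and 63.6 with TSA. It was lower in TKO under both treatments, by -1.17 ± 0.13 and -1.02 ± 0.13 (edgeR adjusted p = 0.000185 and 0.000505), and passed with TSA in neither genotype. Among coat proteins of export vesicles, Sec23a fell with TSA by 0.58 ± 0.09 and by 0.51 ± 0.09 (adjusted p = 0.000509 and 0.000711) and was higher in TKO (0.33 ± 0.09 and 0.40 ± 0.09, adjusted p = 0.0264 and 0.014). Sec13 fell by 0.35 ± 0.08 and by 0.27 ± 0.08 (adjusted p = 0.00421 and 0.0139), and the cargo adaptor Ctage5 fell by 0.43 ± 0.10 and by 0.30 ± 0.10 (adjusted p = 0.00469 and 0.0232). Trappc2 rose by 0.61 ± 0.19 and 0.90 ± 0.19 (adjusted p = 0.0189 and 0.00169). Of the 8 procollagen processing genes, 4 rose and 3 fell in wild type and 3 rose and 3 fell in TKO cells. Bmp1, which removes the C-terminal propeptide of fibrillar procollagens, was the 1 gene of this list that differed between genotypes in each treatment. It was at 53.0 and 31.5 CPM in wild type cells with DMSO, 85.3 and 65.7 with TSA, 5.41 and 7.93 in TKO cells with DMSO and 18.3 and 18.02 with TSA, a log2 difference of -2.67 ± 0.26 and -2.05 ± 0.23 (edgeR adjusted p = 8.59e-05 and 0.000263). The N-propeptidases Adamts2 and Adamts3 rose with TSA in both genotypes by 0.87 to 1.38 on the log2 scale (edgeR adjusted p 0.00211 to 0.0277), and Pcolce2 fell by 1.61 ± 0.16 and by 1.40 ± 0.15 (adjusted p = 3.36e-05 and 2.77e-05).

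Of the 7 cross-linking enzymes tested, 4 rose with TSA in wild type and 6 in TKO cells, and 4 were lower in TKO DMSO and 2 in TKO TSA. Loxl4, a lysyl oxidase, was at 9.56 and 4.38 CPM in wild type cells with DMSO, 28.4 and 27.9 with TSA, 1.37 and 1.67 in TKO cells with DMSO and 6.16 and 10.3 with TSA. It rose by 2.00 ± 0.31 and 2.44 ± 0.39 (edgeR adjusted p = 0.000355 and 0.000353) and was lower in TKO by -2.21 ± 0.40 and -1.77 ± 0.30 (adjusted p = 0.0033 and 0.00257). Pxdn, the peroxidasin that joins type IV collagen networks by sulfilimine bonds, was at 63.8 and 48.8 CPM, 63.7 and 55.7, 23.9 and 26.6, and 63.6 and 57.8 in the same order. TKO DMSO lay below every other library, and the effect of TSA was larger in TKO by 1.18 ± 0.20 (edgeR adjusted p = 0.026). Lox itself rose in TKO cells by 1.60 ± 0.56 (adjusted p = 0.0285) and was lower in TKO DMSO by -2.89 ± 0.51 (adjusted p = 0.00256).

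Receptors and proteases were divided. Among 8 tested collagen receptors 1 rose and 1 fell with TSA in wild type, 2 and 1 in TKO cells, and in TKO 2 were higher and 4 lower in DMSO, and 1 and 2 in TSA. Itgb1, the beta subunit common to the collagen-binding integrins, was lower in TKO by -0.94 ± 0.13 in DMSO and -1.02 ± 0.13 in TSA (edgeR adjusted p = 0.000647 and 0.000532), whereas Ddr2, a receptor kinase for fibrillar collagen, was higher by 2.29 ± 0.36 and 1.58 ± 0.43 (adjusted p = 0.00149 and 0.0252). Of 10 tested proteases and inhibitors, 6 rose and 1 fell in wild type, 7 rose and 2 fell in TKO cells, and 5 were lower in TKO under each treatment. The type IV collagenases Mmp2 and Mmp9 and the inhibitor Timp2 each rose with TSA in both genotypes and were lower in TKO under both treatments. Mmp9 rose by 2.22 ± 0.29 and 2.95 ± 0.35 (edgeR adjusted p = 0.000138 and 4.86e-05), and Timp2 was lower in TKO by -1.64 ± 0.18 and -0.84 ± 0.15 (adjusted p = 0.000148 and 0.00404). Mmp14, a membrane protease of fibrillar collagen, fell with TSA by 1.02 ± 0.28 and by 1.44 ± 0.30 (adjusted p = 0.0108 and 0.00178).

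Partners of the collagens in matrix gave mixed counts. Of 22 other basement membrane genes 12 rose and 2 fell with TSA in wild type, 10 and 4 in TKO cells, and 3 were higher and 5 lower in TKO DMSO, then 2 higher and 5 lower in TKO TSA. Lama1 encodes the alpha chain of the laminin of early embryonic basement membranes. It was at 92.2 and 99.6 CPM in wild type cells with DMSO, 68.5 and 78.9 with TSA, 333 and 352 in TKO cells with DMSO and 257 and 270 with TSA. It was higher in TKO by 1.84 ± 0.10 under each treatment (edgeR adjusted p = 2.69e-06 and 2.06e-06) and lower with TSA by -0.38 ± 0.10 in each genotype (adjusted p = 0.00804 and 0.00559). Lama4, by contrast, rose with TSA by 2.26 ± 0.24 and 2.67 ± 0.27 (adjusted p = 4.8e-05 and 1.71e-05). Of 13 fibril-associated partners 8 rose and 1 fell in wild type, 8 rose and 2 fell in TKO cells, 2 were higher and 2 lower in TKO DMSO, and 2 were lower in TKO TSA. Thbs1 and Tnc, matricellular proteins that bind collagen-rich matrix, also had a larger TSA effect in TKO cells. Thbs1 was at 272 and 125 CPM in wild type cells with DMSO, 236 and 193 with TSA, 15.2 and 8.66 in TKO cells with DMSO and 136 and 159 with TSA. Its TSA effect was larger in TKO by 3.51 ± 0.45 (edgeR adjusted p = 0.00639). Tnc had 8.14 and 6.00 CPM, 6.72 and 4.08, 0.411 and 0, and 2.71 and 5.27, with a difference of 4.58 ± 0.82 (adjusted p = 0.0312). Fbln2 and Tnxb differed the other way, by -2.11 ± 0.38 (edgeR adjusted p = 0.0312) and -4.05 ± 0.84 (adjusted p = 0.045). The genes named in these paragraphs are the 5 of each list with the largest summed change or a part of them, and 6 genes (Comp, Dcn, Lama1, Lamb1, Lum and Postn) stand on both a pathway and a marker list.

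The genes whose log2 CPM followed Col4a1 and Col1a1 most closely over the 8 libraries were found by Pearson's r, as a description without a test. For Col4a1 they were Iffo1, Ttc16, Rilp, Ly6h and Cxx1a, with r of 0.926 to 0.963. For Col1a1 they were Prickle1, Lsp1, Cdh11, Lrrk2 and Trim46, with r of 0.983 to 0.993. Prickle1, for example, had group means of 16.2 CPM in wild type cells with DMSO, 19.1 with TSA, 5.99 in TKO cells with DMSO and 12.7 with TSA. These 8 points share their libraries, their depth and their 4 groups.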

How the data were processed

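Total RNA from 4 groups of 2 libraries was depleted of ribosomal RNA and sequenced in pairs of 51 bases with a strand-marking kit, per the labels' protocols. The authors deposited 1 table of raw read counts per gene, with exon coordinates and length. TopHat2 2.0.13, featureCounts 1.4.5-p1, edgeR 3.22.3 and build mm10 are named in the submitters' processing notes, without roles; the annotation, strand setting and treatment of reads that match several places are not given in the sources used here. The other 118 samples of the series were not analysed here. No column of per-sample counts went unused (0).

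Counts were scaled by TMM and fitted with edgeR 4.0.16 in R 4.3.3 over all 4 groups, with its filter on low counts and 4 residual degrees of freedom, and the script was tested on simulated data. Alternatives were other scalings, no or a stricter filter (a mean of 1 CPM), DESeq2 1.42.0, only the groups compared, the replicate number as a block, and each library left out. Counting intervals are exact at 95%; folds against groups at 0 use a floor of 3 counts per library. Likeness used log2(CPM + 0.5). Values in all libraries are given for basement membrane and fibrillar members with at least 10 counts in all, and for other members called with a log2 change of at least 1 and a mean of at least 1 CPM. Of each pathway list the 5 called genes with the largest summed change could be named, and for Col4a1 and Col1a1 the 5 most alike genes. The members and lists were chosen with earlier results of these data known.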

Additional observations from a re-analysis of the deposited data

Results flagged for a closer look

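The effect of TSA differed between the genotypes by edgeR's interaction test for 2 fibrillar collagens. For Col3a1, TSA in TKO minus TSA in wild type cells was 4.41 on the log2 scale, with a fall in wild type and a rise in TKO cells. For Col1a1 it was 3.05. In TKO DMSO Col3a1 had 1 and 1 counts and Col1a1 10 and 9.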

How the results depend on the processing

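Of the 92 calls of a member in a comparison, 52 were made under each of the 16 alternative settings that could test them, 40 were lost under at least 1, and 0 changed direction by edgeR or DESeq2. Of the calls made, 18 of 30 held throughout with TSA in wild type, 19 of 30 with TSA in TKO cells, 9 of 19 between genotypes in DMSO, 6 of 11 in TSA and 0 of 2 for the interaction. With 1 library left out, the number called ran from 22 to 30, 21 to 32, 11 to 21, 7 to 14 and 0 to 6 in that order; a group left with 1 library is assumed to vary like the others. The interaction count of 2 became 9 with no filter on low counts and 7 by DESeq2. With the replicate number as a block it became 9, and the other counts 36, 34, 23 and 14. The labels do not say that the numbers pair libraries, and deviations of same-numbered libraries correlated at 0.0586 to 0.366. Over all tested genes the interaction count of 213 became 488 with no filter, 401 by DESeq2 and 633 with the block. With 1 library left out it ran from 10 to 410, the genotype count in DMSO of 3221 fell to as few as 1458 and that in TSA of 2910 to 941. The cause was not tested.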
